A study of Homo sapiens with 15 samples.

Results

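The collagen genes are the protein-coding genes whose symbol has the form COL, a type number, A and a chain number in the hg19 version of GENCODE release 44, which gives 44 of 20149 protein-coding genes. H3K4me3 peaks were assigned to a collagen gene when its annotated transcript start lay within 2 kb and was the nearest protein-coding start, and H3K27ac peaks when this held within 100 kb. By this rule 24 of 22572 H3K4me3 peaks and 225 of 62195 H3K27ac peaks belonged to collagen genes. Nearest start is a rule of assignment only, and a distal peak may act on another gene.

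ChIP-seq of both histone marks was performed in MDA-MB-231, a human triple-negative breast cancer cell line (Par), and in 2 sub-populations selected from it in mice, LM2 (lung metastatic) and BrM2 (brain metastatic). Every line carried 2 replicates per mark, which gave 12 libraries. All 3 lines were grown as monolayers in medium with 10% serum, without a further treatment, and no host tissue was profiled. Each of LM2 and BrM2 is 1 sub-population, so what belongs to its site of selection and what belongs to that derivation alone cannot be told apart. Total counts in peaks ranged from 3489607 to 9839629 in the H3K4me3 libraries and from 1994996 to 6450028 in the H3K27ac libraries, and the shallowest was BrM2 replicate 2 of H3K27ac. At the marker starts, H3K4me3 averaged 347 normalized counts per kb at ZEB1, 195 at VIM, 131 at AXL and 109 at CD44, markers of mesenchymal cells. The fibroblast markers DCN, LUM and THY1, the endothelial markers PECAM1 and CDH5 and the leukocyte marker PTPRC had no H3K4me3 peak. The other fibroblast markers, PDGFRA and PDGFRB, stood at 28.3 and 37.3. Luminal and epithelial markers, which a claudin-low line is known to express little of, had peaks with levels from 19.4 at PGR to 126 at EPCAM, a range that takes in CD44. All these levels are averages over the 3 lines, which differed at some markers. ESR1 stood at 29.4 in Par, 167.5 in LM2 and 89.8 in BrM2, and CLDN4 at 118.8, 10.4 and 28.5.

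Collagens are triple helices of 3 chains that build most of the extracellular matrix. Fibrillar collagens (such as types I, III and V) give tissue its tensile strength, the network-forming type IV is the scaffold of basement membranes, and type VI forms beaded filaments around cells. FACIT collagens decorate fibrils, type VII anchors epithelium to stroma, and some collagens span the plasma membrane. H3K4me3 marks active promoters, and H3K27ac marks active promoters and enhancers. Several collagen genes lie head to head and share a promoter region, as COL4A1 and COL4A2 do.

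An H3K4me3 peak stood at 25 collagen genes, or 56.8%, against 67.8% of all protein-coding genes, a difference that was not tested. Of these, 23 also had H3K27ac, and COL2A1 and COL11A1 had H3K4me3 only. H3K27ac without H3K4me3 was found at 12 genes, among them COL1A2, COL3A1, COL5A2 and COL6A3. Of these 12, COL1A2 and COL9A3 alone had an H3K27ac peak at a start, and the others had only peaks elsewhere within 100 kb. No peak of either mark was assigned to 7 genes, COL5A3, COL6A5, COL6A6, COL9A1, COL20A1, COL22A1 and COL23A1. By class, H3K4me3 was present at 6 of 11 fibrillar genes, 8 of 9 basement membrane and network genes, 2 of 5 beaded filament genes, 5 of 10 FACIT genes and 1 of 4 transmembrane genes. The median collagen peak held 55.5 normalized counts per kb, against 137 for all H3K4me3 peaks within 2 kb of a protein-coding start, and 8 of the 24 collagen peaks lay above that median.

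COL18A1, whose product is the source of endostatin, had the highest level of H3K4me3, at 320 normalized counts per kb averaged over the lines. It was followed by the shared start of COL4A1 and COL4A2 at 239, COL13A1 at 203, the shared start of COL4A3 and COL4A4 at 191, and COL6A2 and COL19A1 at 168 each. COL5A1 (164) and COL27A1 (158) came next. Neighbours in this order were not separated by their replicates, which differed by up to about as much as the levels did: at COL18A1, replicates 1 and 2 of Par held 1415 and 740 normalized counts. At the lower end stood COL11A1 at 13.0 and the second start of COL8A2 at 7.56. COL1A1, which encodes the main chain of type I collagen, was low at 55.3, at percentile 17.3 of all peaks within 2 kb of a start. COL1A2, the gene of the partner chain, had no H3K4me3 peak. The third head-to-head pair, COL4A5 and COL4A6 on chromosome X, was low as well, at 43.2.

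Promoter composition was described over the 250 bases before the canonical transcript start. Collagen promoters with an H3K4me3 peak had a median GC content of 68.4% and a median observed to expected CpG ratio of 0.708, and the 19 without had 65.2% and 0.442. Over all protein-coding promoters the ratios were 0.835 with a peak and 0.283 without. A TATA box, searched as TATAAA on either strand, was found in 8 of 44 collagen promoters (18.2%), against 9.22% of 19514 promoters. A GC box, searched as GGGCGG on either strand, was found in 28 (63.6%, against 59.5%). A CCAAT box, searched by those letters on either strand, was found in 13 (29.5%, against 34.3%). The AP-1 motif, searched as TGANTCA, was found in 1 (2.27%, against 4.72%). No test was run on these shares.

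Few H3K4me3 peaks of collagen genes passed the DESeq2 Wald test without a replicate term (Benjamini-Hochberg adjusted p under 0.05 over all peaks of the mark). In LM2 against Par 1 of 23 tested peaks passed, higher in LM2, beside 2.28% of all peaks within 2 kb of a start (1.71% higher and 0.57% lower). In BrM2 against Par it was 1 of 23, higher in BrM2, beside 3.01% (2.1% higher and 0.905% lower). In BrM2 against LM2 it was 3 of 23, 2 higher and 1 lower in BrM2, beside 2.5% (1.5% higher and 0.995% lower). In these bulk libraries fewer marked cells and less mark per cell cannot be told apart.

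Same-numbered libraries of different lines deviated together (r = 0.788 to 0.843 for H3K4me3), though the labels do not say what a number marks. Replicate 2 of H3K4me3 was also deeper than replicate 1 in every line, and a link with depth was not tested. Total counts in peaks were 6714331 against 3489607 in Par, 9839629 against 4357121 in LM2 and 8069529 against 4581712 in BrM2. With the replicate number as a block, which left 2 residual degrees of freedom against 3 without it, the counts of called peaks were larger. LM2 against Par then gave 9 higher and 1 lower of 21 tested, beside 17.7% of all peaks near starts (10.3% higher and 7.4% lower). BrM2 against Par gave 7 higher and 4 lower of 23, beside 23.1% (9.03% higher and 14% lower). BrM2 against LM2 gave 2 higher and 9 lower of 23, beside 27.8% (9.73% higher and 18.1% lower). The median log2 fold change over the 24 collagen peaks was 0.54 in LM2 against Par, 0.09 in BrM2 against Par and -0.65 in BrM2 against LM2. Over all peaks near starts the medians were 0.00, -0.07 and -0.08. Both LM2 libraries lay above both Par libraries at 9 collagen peaks and below them at 1, beside 15.1% and 17.8% of all peaks near starts. BrM2 lay above Par at 5 and below it at 4 (16.8% and 19.4%), and above LM2 at 2 and below it at 7 (16.9% and 17.8%).

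**Figure D1:**
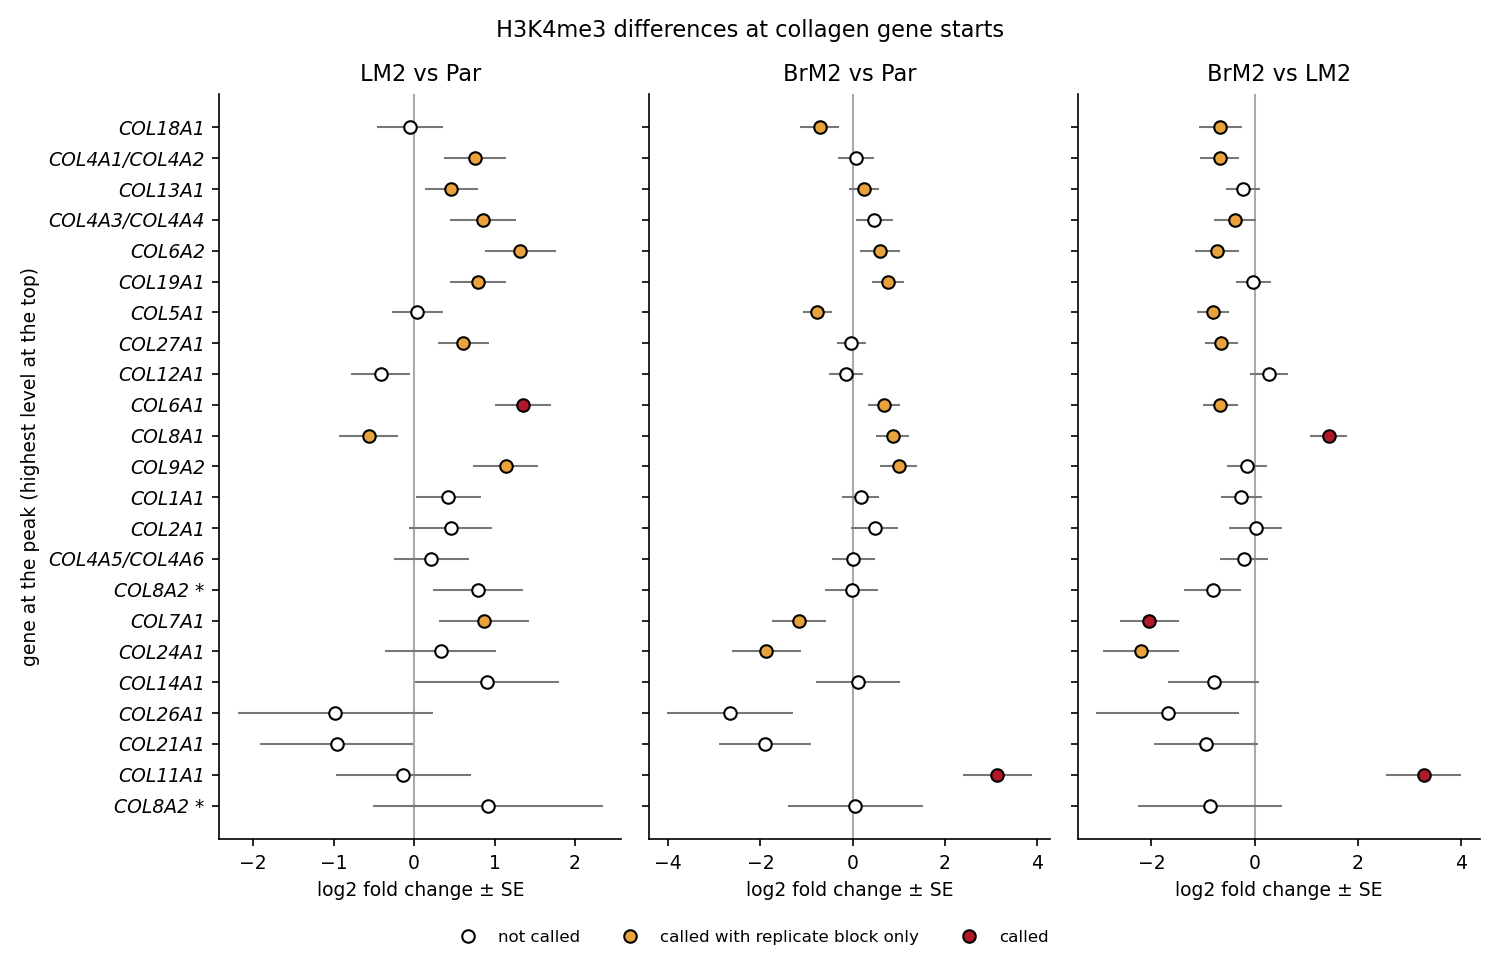
Log2 fold change of H3K4me3 (x axis, ± SE of the DESeq2 fit without replicate block) at the 23 collagen peaks that were tested in every comparison, ordered by level with the highest at the top, and asterisks marking the 2 starts of COL8A2. Red points passed the test, orange points passed it with the replicate block only and white points passed neither, and the COL11A1 peak stands at 3.14 and 3.27 in the comparisons of BrM2.

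For H3K27ac, the fit without the block called 10 of 164 tested collagen peaks in LM2 against Par, all higher in LM2, beside 3.25% of all peaks within 100 kb of a start (2.27% higher and 0.973% lower). They lay at 5 genes. In BrM2 against Par it called 14 of 186, 7 higher and 7 lower, at 7 genes, beside 4.36% (2.8% higher and 1.56% lower). In BrM2 against LM2 it called 5 of 168, 3 higher and 2 lower, at 3 genes, beside 2.38% (1.37% higher and 1.01% lower). Peaks of 1 gene lie close to each other and are not independent. With the replicate block 11 of 162 passed in LM2 against Par, all higher, beside 5.06% (3.08% higher and 1.98% lower). In BrM2 against Par 7 were then higher and 11 lower of 162 tested, beside 7.86% (4.59% and 3.27%). In BrM2 against LM2 4 were higher and 7 lower of 145 tested, beside 5.62% (3.37% and 2.25%). The median log2 fold changes over the 225 peaks were small, at 0.08, -0.10 and -0.23, against -0.04, -0.02 and -0.01 over all peaks within 100 kb of a start.

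**Figure D2:**
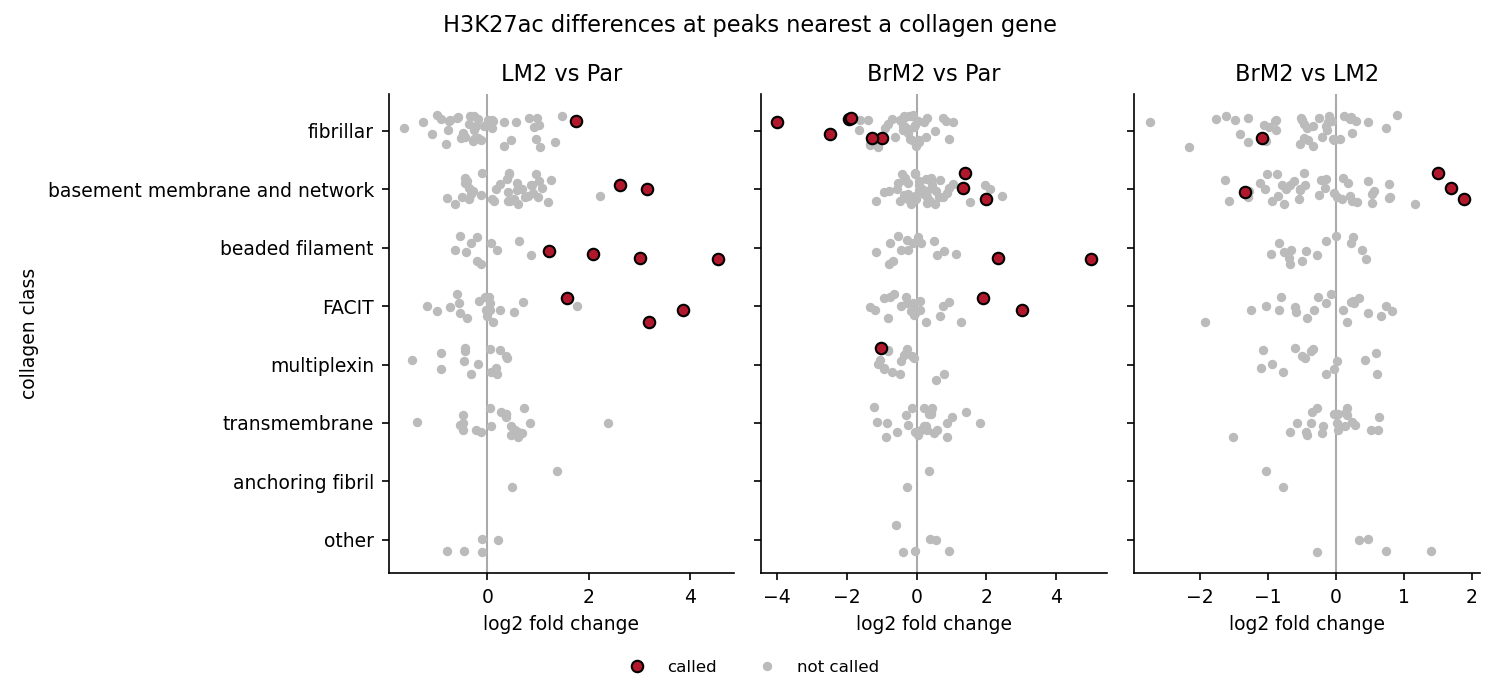
Log2 fold change of H3K27ac (x axis) at each tested peak of a collagen gene, by collagen class (y axis, points spread vertically for visibility), with peaks that passed the DESeq2 test in red. The 4 called beaded filament peaks of LM2 lie between 1.22 and 4.56, and the 6 called fibrillar peaks of BrM2 against Par are all below 0.

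The beaded filament genes COL6A1 and COL6A2, which lie in tandem on chromosome 21 (hg19) and encode 2 of the chains of collagen VI, had peaks of both marks that were higher in LM2 than in Par. At the COL6A1 start (chr21:47400825-47404450) H3K4me3 held 202 and 182 normalized counts for Par, 558 and 425 for LM2 and 355 and 264 for BrM2 in replicates 1 and 2, an order kept throughout. The 3 lines did not overlap, with Par lowest and LM2 highest. LM2 against Par gave a log2 fold change of 1.36 ± 0.35 (SE, DESeq2 adjusted p = 0.00686). In BrM2 against Par it was 0.69 ± 0.35 (adjusted p = 0.461, with the block 0.00175). At the COL6A2 start (chr21:47517482-47519612) the counts were 272 and 159 for Par, 703 and 372 for LM2 and 423 and 224 for BrM2. LM2 lay above Par in both libraries, and BrM2 overlapped both other lines. Here the log2 fold change in LM2 was 1.32 ± 0.44, with an adjusted p of 0.0845, and of 2.77e-13 with the block. Within replicate 1 the log2 ratio to Par was 1.37 and within replicate 2 it was 1.22. The COL6A1 call was lost whichever of the 4 Par and LM2 libraries was left out, with adjusted p values from 0.0511 to 0.407 and log2 fold changes from 1.14 to 1.53.

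The COL6A2 promoter is shown as that of a start with higher values of both marks in LM2 than in Par, where H3K4me3 did not pass in the fit without the block. Capitals mark the letters of the 4 motifs defined above, on either strand. Letters are hg19 (GRCh37) from 5′ to 3′ on the gene's strand, and the last base precedes the canonical transcript start. The sequence holds 4 GC box matches and 1 TATA box match.
COL6A2, chr21:47517776-47518025, + strand: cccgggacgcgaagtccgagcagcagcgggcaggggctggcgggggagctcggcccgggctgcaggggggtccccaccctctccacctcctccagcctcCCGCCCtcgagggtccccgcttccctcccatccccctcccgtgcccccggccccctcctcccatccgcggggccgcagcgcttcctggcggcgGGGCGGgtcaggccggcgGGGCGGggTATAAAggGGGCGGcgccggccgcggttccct

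Of the collagen H3K27ac peaks that passed, the one with the largest difference from Par in each sub-population lay between these genes. The peak at chr21:47458453-47459962 is intergenic, 56.8 kb downstream of the COL6A1 gene start and 58.1 kb upstream of the COL6A2 gene start. It held 1.7 and 2.0 normalized counts for Par, 39.3 and 49.3 for LM2 and 41.9 and 81.0 for BrM2. Par was near 0 in both libraries and the sub-populations overlapped each other. With 4 raw counts in the Par libraries together, the ratio of pooled counts was 23.0 in LM2 (exact 95% interval 8.76 to 85.9, counting error only) and 29.5 in BrM2 (11.1 to 111). The DESeq2 adjusted p was 2.5e-05 and 1.83e-06, and both calls held in all 11 alternatives.

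Further peaks toward COL6A2 followed. The peak 39.0 kb upstream of the COL6A2 gene start (chr21:47474097-47479069) held 21.8 and 21.03 for Par, 86.4 and 95.6 for LM2 and 45.8 and 48.2 for BrM2, with Par lowest and LM2 highest without overlap. LM2 exceeded Par by 2.08 ± 0.42 on the log2 scale (adjusted p = 0.000137), and BrM2 against Par was 1.13 ± 0.45 (0.134). The peak 31.8 kb upstream (chr21:47484292-47486224) held 3.5 and 7.0 for Par, 33.1 and 51.2 for LM2 and 20.5 and 32.8 for BrM2. Par was lowest and LM2 highest without overlap. It rose in LM2 by 3.02 ± 0.67 (adjusted p = 0.000797) and in BrM2 by 2.33 ± 0.70 (adjusted p = 0.0228). The peak at the COL6A2 start held 43.6 and 43.1 for Par, 105 and 95.6 for LM2 and 72.2 and 77.1 for BrM2, again in separate ranges, and rose in LM2 by 1.22 ± 0.37 (adjusted p = 0.028). The broad H3K27ac peak that covers the COL6A1 start did not pass, at -0.20 in LM2 and 0.05 in BrM2, and its libraries overlapped in all lines. Without Par replicate 1 or LM2 replicate 2 the 31.8 kb peak gave adjusted p values of 0.108 and 0.124 in LM2, in BrM2 its call was lost whichever of the 6 libraries was left out (0.0692 to 0.334), and so was the LM2 call at the COL6A2 start (0.0716 to 0.591). Median log2 fold changes of neighbouring peaks within 2.5 Mb were -0.38 in LM2 and -0.13 in BrM2. COL6A3, which encodes the third chain, had no H3K4me3 peak, and none of its 11 H3K27ac peaks passed in any comparison.

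The middle 200 bases of the intergenic peak are printed because its difference was the largest. The middle is a convention, since the tables give no summit. It holds 1 AP-1 match, in capitals, and 9.74% of the middles of all H3K27ac peaks hold this motif.
COL6A1, chr21:47459107-47459306, + strand: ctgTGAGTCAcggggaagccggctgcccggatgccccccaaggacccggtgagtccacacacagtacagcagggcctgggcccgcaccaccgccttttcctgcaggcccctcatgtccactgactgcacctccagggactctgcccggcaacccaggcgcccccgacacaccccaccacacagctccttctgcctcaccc

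**Figure D3:**
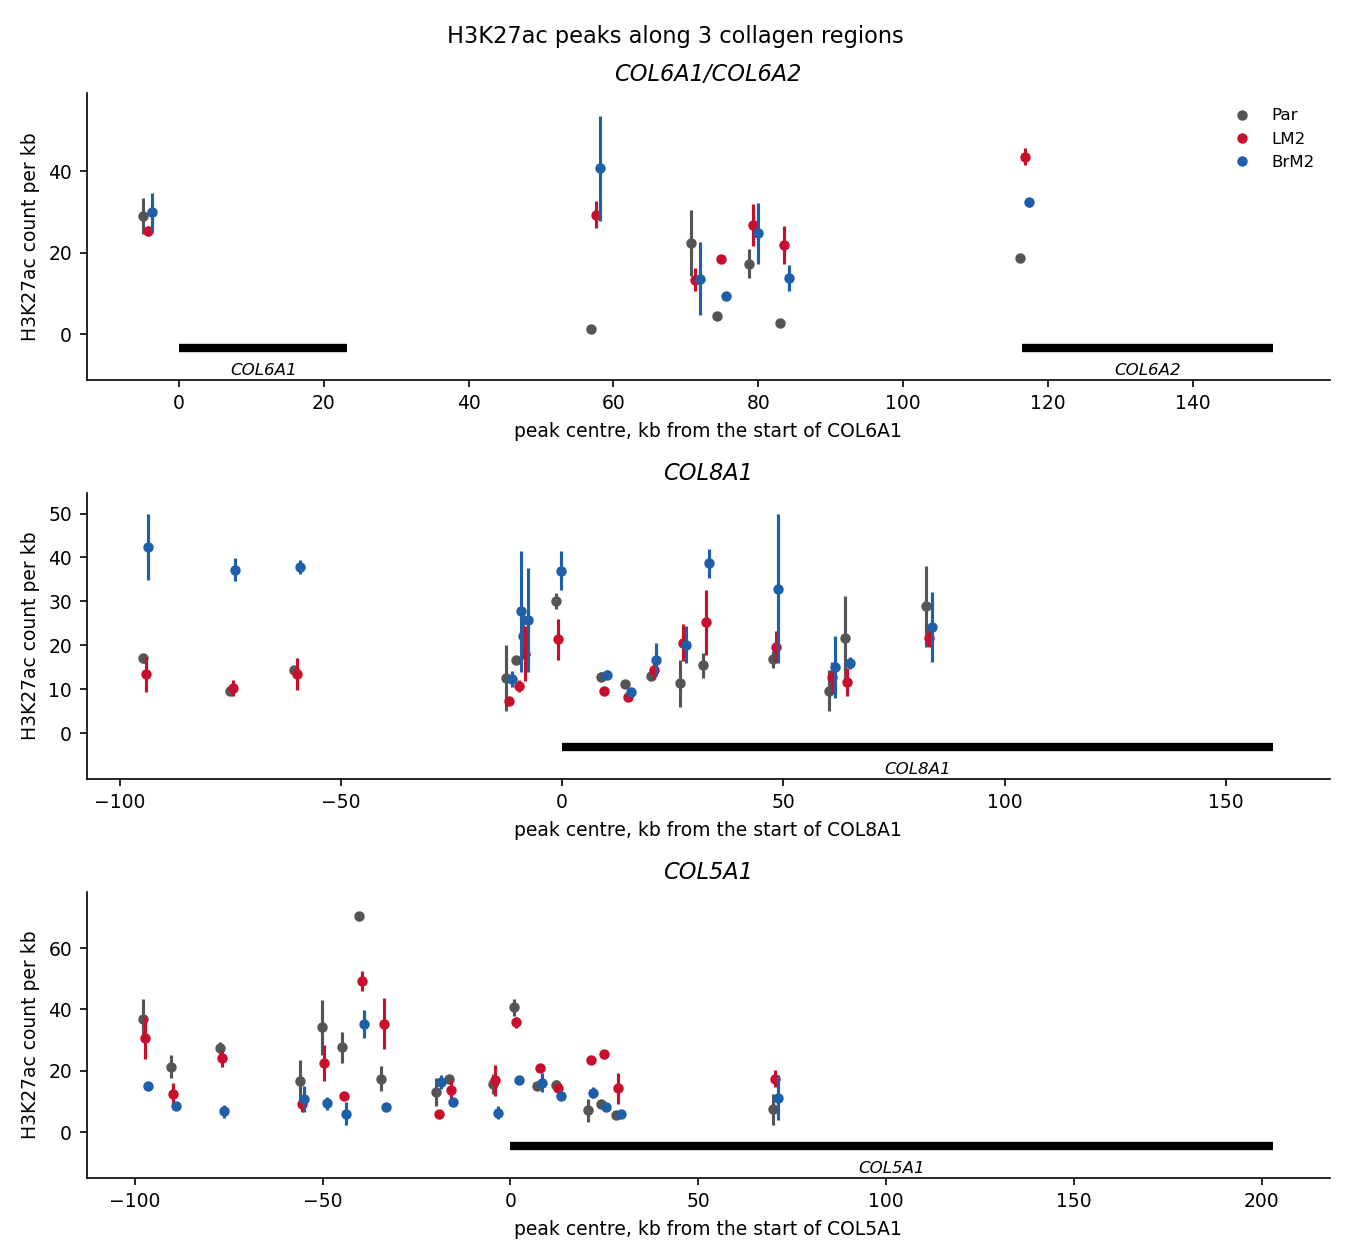
H3K27ac in normalized counts per kb of peak (y axis) against the position of the peak centre from the gene start (x axis, kb), for the regions of COL6A1 and COL6A2, COL8A1 and COL5A1. Points are line means, vertical lines join both replicates and black bars are the genes: Par is near 0 at 56.8 kb from COL6A1, BrM2 stands above Par and LM2 at the 3 farthest upstream peaks of COL8A1, and BrM2 is below Par at most upstream peaks of COL5A1.

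Among the basement membrane and network genes, COL8A1 separated the sub-populations. COL8A1 encodes a short-chain collagen of vessel and corneal basement membranes. At its start (chr3:99355636-99361519) H3K4me3 held 252 and 334 normalized counts for Par, 148 and 246 for LM2 and 556 and 518 for BrM2. The lines did not overlap, with LM2 lowest and BrM2 highest. BrM2 was higher than LM2 by 1.43 ± 0.36 on the log2 scale (DESeq2 adjusted p = 0.00412). BrM2 against Par was 0.87 ± 0.36 (adjusted p = 0.234, with the block 7.33e-05), and LM2 against Par was -0.56 ± 0.37 (0.863, with the block 0.0367).

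H3K27ac at 3 upstream peaks of COL8A1 had the same order of BrM2 against the rest. At the peak 72.5 kb upstream of the start (chr3:99280870-99284775), Par held 34.9 and 39.1 normalized counts, LM2 32.5 and 47.3, and BrM2 156 and 135. Both BrM2 libraries lay above all others, and Par and LM2 overlapped. The log2 fold change was 1.98 ± 0.39 against Par (adjusted p = 4.41e-05) and 1.89 ± 0.38 against LM2 (adjusted p = 0.000157). The peaks 91.8 kb and 57.9 kb upstream rose in BrM2 by 1.33 ± 0.38 and 1.40 ± 0.38 against Par (adjusted p = 0.0132 and 0.00814) and by 1.69 ± 0.38 and 1.5 ± 0.37 against LM2 (0.00107 and 0.00543). H3K27ac at the start itself did not pass, at 0.29 against Par and 0.80 against LM2 (adjusted p = 0.752 and 0.151, with the block 0.521 and 0.00759). Neighbouring H3K27ac peaks within 2.5 Mb had a median of 0.46 in BrM2 against LM2 and of 0.07 against Par, and around the H3K4me3 start it was 0.29 in BrM2 against LM2. With the medians removed, BrM2 against LM2 was lost at the 91.8 kb and 57.9 kb peaks (adjusted p = 0.0642 and 0.181) and at the H3K4me3 start (0.0554), and kept at the 72.5 kb peak (0.0173). The start's call was also lost without LM2 replicate 1 (0.234) or either BrM2 library (0.135 and 0.121), and that of the 72.5 kb peak without BrM2 replicate 1 (0.0646 against Par and 0.182 against LM2) or, against LM2, LM2 replicate 1 (0.121). The other upstream peaks lost their calls against Par whichever Par or BrM2 library was left out (0.0574 to 0.568), and against LM2 without LM2 replicate 1 (0.232 and 0.394), BrM2 replicate 1 (0.403 and 0.284) or, at 57.9 kb, BrM2 replicate 2 (0.258).

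The COL8A1 promoter holds 3 GC box matches, in capitals, and no other of the searched letters.
COL8A1, chr3:99357188-99357437, + strand: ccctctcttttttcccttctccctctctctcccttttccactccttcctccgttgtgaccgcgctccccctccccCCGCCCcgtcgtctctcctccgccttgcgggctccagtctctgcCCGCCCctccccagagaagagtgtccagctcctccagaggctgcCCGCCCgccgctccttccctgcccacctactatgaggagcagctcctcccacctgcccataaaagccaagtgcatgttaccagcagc

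All 3 type IV starts had their highest mean H3K4me3 in LM2, and 2 of them passed against Par with the block only. COL4A1 and COL4A2 encode chains of type IV collagen. At their shared start (chr13:110958063-110961915) H3K4me3 held 898 and 582 normalized counts for Par, 1523 and 972 for LM2 and 987 and 569 for BrM2. LM2 lay above Par, and BrM2 overlapped both. LM2 against Par was 0.75 ± 0.39 (adjusted p = 0.589, with the block 3.19e-10), and BrM2 against LM2 was -0.68 ± 0.39 (0.548, with the block 1.96e-09). The start of COL4A3 and COL4A4, genes of the kidney glomerular basement membrane, held 287 and 211 for Par, 522 and 377 for LM2 and 467 and 224 for BrM2, and passed in LM2 with the block only (0.85 ± 0.41, adjusted p = 0.484, with the block 0.000112). COL4A5 and COL4A6 passed in neither fit.

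Within COL4A2, 2 intronic H3K27ac peaks rose in LM2. The peak 23.6 kb into the gene (chr13:110981787-110984113) held 7.0 and 4.0 normalized counts for Par, 26.9 and 42.4 for LM2 and 20.5 and 23.1 for BrM2, a log2 fold change of 2.63 ± 0.68 in LM2 (adjusted p = 0.00606). The peak 180.6 kb into it (chr13:111138791-111139836) held 3.5 and 4.0, 38.1 and 27.6, and 10.7 and 23.1, in the same order of lines, with 3.15 ± 0.77 in LM2 (adjusted p = 0.00311). At both peaks BrM2 lay between the other lines without overlap. Downstream of COL4A1, the peak at chr13:110745334-110750171, 71836 bases from an internal transcript start of the gene, held 111 and 107 for Par, 159 and 128 for LM2 and 64.3 and 48.2 for BrM2 without overlap, and was lower in BrM2 than in LM2 (-1.33 ± 0.36, adjusted p = 0.0118). The neighbourhood moved the same way: medians within 2.5 Mb were 0.52 and 0.50 in LM2 against Par at the COL4A2 peaks, -0.49 in BrM2 against LM2 at the COL4A1 peak, and 0.41 and -0.40 in these comparisons at the H3K4me3 start. With the medians removed, the 23.6 kb and COL4A1 calls were lost (0.0627 and 0.351) and the 180.6 kb call was kept (0.028), and all 3 were lost whichever of the 4 libraries compared was left out (adjusted p from 0.0519 to 0.379).

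Of the fibrillar genes, COL11A1 had the largest H3K4me3 difference of any tested collagen peak, a gain in BrM2. COL11A1 encodes a chain of type XI collagen, a minor fibrillar collagen of cartilage. At its start (chr1:103572274-103574048) H3K4me3 held 3.7 and 8.5 normalized counts for Par, 4.6 and 6.9 for LM2 and 44.8 and 70.3 for BrM2. Par and LM2 overlapped at a low level and both BrM2 libraries lay far above. BrM2 was higher by 3.14 ± 0.75 than Par (DESeq2 adjusted p = 0.002) and by 3.27 ± 0.73 than LM2 (0.000679). Even in BrM2 the level was 32.4 normalized counts per kb, under the median of promoter peaks, and no H3K27ac peak was assigned to the gene. Neighbouring peaks had medians of -0.07 and -0.05, here over the whole chromosome since few lay within 2.5 Mb. Against Par the call was lost without Par replicate 1 or 2 (adjusted p = 0.0867 and 0.113) or BrM2 replicate 2 (0.378), and against LM2 without LM2 replicate 2 (0.0787) or BrM2 replicate 2 (0.387).

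The COL11A1 promoter is shown as the promoter with the largest H3K4me3 difference. It holds 3 GC box matches and 1 CCAAT match, in capitals, and lies just upstream of the peak, which begins inside the gene.
COL11A1, chr1:103574079-103574328, - strand: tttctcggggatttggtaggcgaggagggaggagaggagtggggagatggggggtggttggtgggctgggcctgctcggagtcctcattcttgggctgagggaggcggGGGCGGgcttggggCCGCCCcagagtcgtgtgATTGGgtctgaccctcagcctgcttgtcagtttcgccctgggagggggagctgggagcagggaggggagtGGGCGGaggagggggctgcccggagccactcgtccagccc

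COL5A1, COL1A2 and COL24A1, in contrast, had lower values in BrM2. COL5A1 encodes the chain of type V collagen that helps start fibrils. At its start (chr9:137532709-137537461) H3K4me3 held 1016 and 768 normalized counts for Par, 971 and 862 for LM2 and 579 and 469 for BrM2, so that BrM2 lay below both other lines. This passed with the block only (-0.77 ± 0.32 against Par, adjusted p = 0.232, with the block 7.15e-09). H3K27ac at the start held 200 and 229 for Par, 180 and 198 for LM2 and 88.7 in each BrM2 library, and fell by 1.27 ± 0.31 against Par (adjusted p = 0.0023) and by 1.09 ± 0.31 against LM2 (0.0224). The peak 47.0 kb upstream (chr9:137481573-137486625) held 126 and 218 for Par, 84.7 and 144 for LM2 and 37.0 and 57.8 for BrM2, with BrM2 below all others and Par overlapping LM2. Peaks 75.9, 47.0 and 36.4 kb upstream fell in BrM2 against Par by 1.94, 1.89 and 0.99 (adjusted p = 0.0185, 0.000598 and 0.0113). Around COL5A1 on chromosome 9 the median H3K27ac log2 fold change of neighbouring peaks was -0.69 in BrM2 against Par, and with it removed none of these 5 calls remained (adjusted p from 0.089 to 0.827). Around the H3K4me3 start the median was -0.45 against Par and -0.60 against LM2. The fall at the start against Par was also lost without Par replicate 2 (0.0954) or a BrM2 library (0.161 and 0.071), and that against LM2 whichever of the 6 libraries was left out (0.0507 to 0.502). The upstream calls were lost without Par replicate 2 (0.126, 0.128 and 0.13) or BrM2 replicate 1 (0.221, 0.186 and 0.0826). Those at 75.9 and 36.4 kb were also lost without Par replicate 1 (0.229 and 0.117) or BrM2 replicate 2 (0.284 and 0.3), and that at 75.9 kb without LM2 replicate 1 (0.0687).

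An intronic COL5A1 peak went the other way in LM2. At 19.5 kb into the gene (chr9:137553198-137556762) H3K27ac held 12.2 and 38.1 normalized counts for Par, 80.8 and 86.7 for LM2 and 39.0 and 52.0 for BrM2. Par was lowest, LM2 highest, and no line overlapped another. LM2 exceeded Par by 1.75 ± 0.49 on the log2 scale (adjusted p = 0.0139), a call that was lost without Par replicate 1 (0.46) or either LM2 library (0.342 and 0.269).

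COL1A2 encodes the second chain of type I collagen. At 17.1 kb upstream of its start (chr7:94003821-94007143) H3K27ac held 72.3 and 74.1 normalized counts for Par, 39.8 and 28.6 for LM2 and 16.6 and 7.7 for BrM2. The lines did not overlap, and BrM2 was lowest. BrM2 was below Par by a log2 fold change of -2.50 ± 0.54 (adjusted p = 0.000331), and this call held in all 11 alternatives. At 2.7 kb upstream (chr7:94020726-94021481) the counts were 31.4 and 37.1, 10.1 and 18.7, and 0 and 5.8, in the same order. With 3 raw counts in BrM2, Par exceeded it 17.5-fold by pooled counts (exact 95% interval 5.76 to 86.9, DESeq2 adjusted p = 0.00387), and the call was lost without BrM2 replicate 1 (0.425), while without either Par library no adjusted p was given. Neighbouring peaks had a median of -0.57 in BrM2 against Par, and both calls remained with it removed (0.0157 and 0.0271). LM2 against Par was -1.08 and -1.27 and did not pass (0.202 and 0.397).

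COL1A1 passed the test in neither mark in any comparison. Its H3K4me3 held 95.5 and 133 normalized counts for Par, 122 and 185 for LM2 and 111 and 147 for BrM2, and all lines overlapped. COL24A1, a fibrillar gene of low level, held 20.2 and 47.0 for Par, 27.4 and 57.7 for LM2 and 4.0 and 13.7 for BrM2. BrM2 was lowest without overlap, with -2.20 ± 0.73 against LM2 (adjusted p = 0.0701, with the block 0.00136) and -1.87 ± 0.74 against Par (0.188, with the block 0.0121). COL27A1, which encodes a fibrillar collagen of cartilage, held 514 and 425 for Par, 746 and 688 for LM2 and 501 and 418 for BrM2. LM2 lay above both other lines, and this passed with the block only (0.61 ± 0.31 against Par, adjusted p = 0.591, with the block 6.33e-05). COL2A1, the cartilage fibrillar gene, passed in neither fit. The COL24A1 promoter, printed for its low BrM2 values, holds none of the searched letters.
COL24A1, chr1:86622456-86622705, - strand: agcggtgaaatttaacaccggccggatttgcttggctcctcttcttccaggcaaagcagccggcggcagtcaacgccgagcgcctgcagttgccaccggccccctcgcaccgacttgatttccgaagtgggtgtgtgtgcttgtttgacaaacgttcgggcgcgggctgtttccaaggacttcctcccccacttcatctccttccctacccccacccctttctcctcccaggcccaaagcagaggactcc

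COL7A1 encodes the anchoring fibril collagen of epithelial basement membranes. Its H3K4me3 (chr3:48630988-48633631) held 47.8 and 109 normalized counts for Par, 96.1 and 193 for LM2 and 17.1 and 51.7 for BrM2. BrM2 lay below LM2 without overlap, and Par overlapped both. BrM2 was lower than LM2 by a log2 fold change of -2.04 ± 0.57 (DESeq2 adjusted p = 0.0144, edgeR 0.0682). Replicate 2 stood above replicate 1 in every line, and within replicates 1 and 2 the log2 differences were -2.45 and -1.89. With the block, LM2 was above Par (adjusted p = 0.0352) and BrM2 below it (0.00623). Without LM2 replicate 2 or BrM2 replicate 1 the call between the sub-populations was lost (0.464 and 0.396). The H3K27ac peak over the same start was -0.78 and did not pass. The COL7A1 promoter holds 1 TATA box match and 3 GC box matches.
COL7A1, chr3:48632763-48633012, - strand: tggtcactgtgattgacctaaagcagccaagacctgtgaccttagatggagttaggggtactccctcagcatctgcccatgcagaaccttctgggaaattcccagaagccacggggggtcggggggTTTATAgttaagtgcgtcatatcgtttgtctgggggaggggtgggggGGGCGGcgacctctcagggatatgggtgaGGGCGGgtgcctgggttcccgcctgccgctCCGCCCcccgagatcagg

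**Figure D4:**
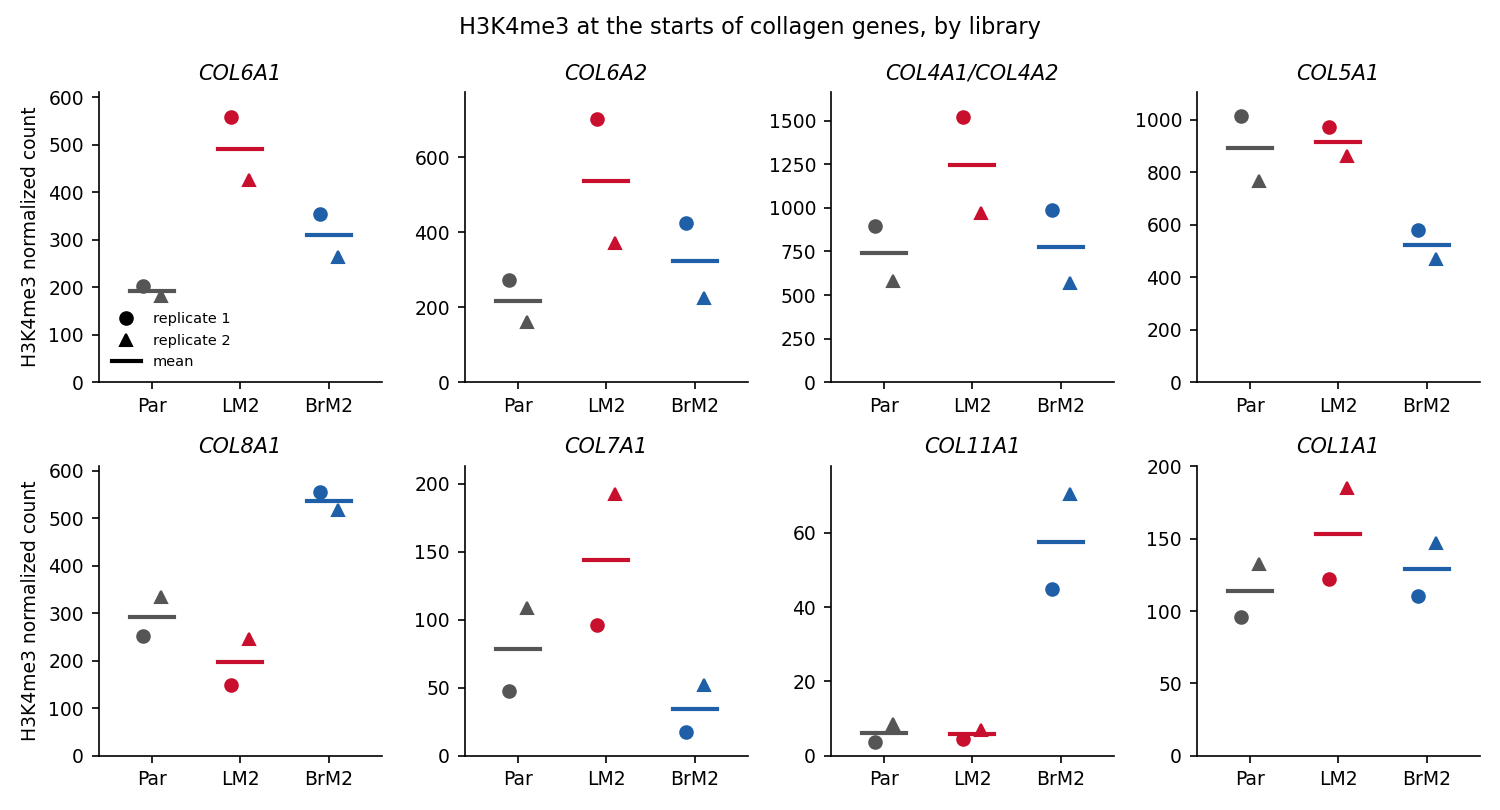
H3K4me3 normalized count (y axis, from 0) in each library of Par, LM2 and BrM2 (x axis) at 8 collagen starts, with circles for replicate 1, triangles for replicate 2 and bars for the mean of both. COL6A1 is highest in LM2, COL8A1 and COL11A1 in BrM2, COL5A1 is lowest in BrM2, and the COL1A1 libraries overlap.

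Of the FACIT genes, COL19A1 had H3K27ac gains in both sub-populations. COL19A1 encodes a basement membrane zone collagen of muscle and nervous tissue, and the peaks at its start are equally near the start of LMBRD1, a lysosomal cobalamin transport gene. H3K4me3 at this shared start held 200 and 197 normalized counts for Par, 384 and 307 for LM2 and 394 and 284 for BrM2. Both sub-populations lay above Par and overlapped each other. This passed with the block only (0.79 ± 0.35 and 0.77 ± 0.35, adjusted p = 0.372 and 0.328, with the block 0.000591 and 0.000945). H3K27ac at the start held 20.04 and 16.0 for Par, 42.1 and 66.0 for LM2 and 55.6 and 82.9 for BrM2, a rise of 1.57 ± 0.48 and 1.92 ± 0.49 (adjusted p = 0.0326 and 0.00387). The LM2 call at the start was lost whichever of the 6 libraries was left out (0.0808 to 0.531), and the BrM2 call whichever BrM2 or Par library was left out (0.0543 to 0.227).

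The larger gain lay in an intron, 50.7 kb from the COL19A1 gene start (chr6:70627183-70629154). It held 6.1 and 6.0 normalized counts for Par, 94.2 and 81.8 for LM2 and 60.5 and 36.6 for BrM2. The lines did not overlap. LM2 exceeded Par by 3.87 ± 0.57 on the log2 scale (adjusted p = 6.48e-09) and BrM2 by 3.04 ± 0.58 (3.31e-05), and both held in all 11 alternatives. Another intronic peak, 28.5 kb from the gene start, rose in LM2 by 3.19 ± 0.91 (adjusted p = 0.018), from 3.5 and 2.0 to 32.5 and 17.7, and stood at 8.8 and 3.9 in BrM2. With a Par or LM2 library left out, this peak had no adjusted p. The middle 200 bases of the stronger peak, which hold none of the searched letters, were as follows.
COL19A1, chr6:70628068-70628267, + strand: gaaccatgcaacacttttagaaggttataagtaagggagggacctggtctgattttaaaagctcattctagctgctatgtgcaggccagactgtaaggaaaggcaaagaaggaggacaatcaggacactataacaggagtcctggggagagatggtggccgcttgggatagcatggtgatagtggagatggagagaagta

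The remaining FACIT genes did not pass without the block. COL9A2, of cartilage type IX collagen, held 58.8 and 90.9 normalized H3K4me3 counts for Par, 157 and 177 for LM2 and 169 and 136 for BrM2. Both sub-populations lay above Par (1.14 ± 0.40 and 0.99 ± 0.40, adjusted p = 0.131 and 0.207, with the block 0.00117 and 0.00485). COL12A1, a fibril-associated collagen of dense connective tissue, passed in neither fit, and COL14A1 and COL21A1 had mean levels of 23.1 and 15.9 normalized counts per kb.

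COL13A1 and COL18A1, a transmembrane and a heparan sulphate proteoglycan collagen, had high promoter levels, and H3K27ac at the COL18A1 start was lower in BrM2 than in Par. COL13A1 H3K4me3 held 1437 and 1006 normalized counts for Par, 1947 and 1420 for LM2 and 1599 and 1290 for BrM2, and all lines overlapped. It passed with the block only (0.46 ± 0.33 in LM2 and 0.24 ± 0.33 in BrM2, adjusted p = 0.942 and 0.996, with the block 1.71e-05 and 0.0307). None of its 24 H3K27ac peaks, the most of any collagen gene, passed in any comparison. H3K27ac at the COL18A1 start held 197 and 234 for Par, 142 and 175 for LM2 and 104 and 106 for BrM2, in that order without overlap, and BrM2 was below Par by -1.04 ± 0.31 (adjusted p = 0.024). This call was lost whichever of the 6 libraries was left out (0.0518 to 0.398). H3K4me3 at the same start gave -0.72 ± 0.41 (adjusted p = 0.599, with the block 1.8e-08).

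Where an H3K27ac peak overlapped the H3K4me3 peak of a collagen gene, at 18 starts, the log2 fold changes of both marks had the same sign at 11 starts in LM2 against Par, 12 in BrM2 against Par and 12 in BrM2 against LM2. The share of equal signs over all starts was not computed, and these counts were not tested. Some overlaps were short, such as 197 bases at a COL8A2 start. COL6A2 and COL19A1 in LM2, and COL5A1, COL18A1 and COL19A1 in BrM2, passed against Par in both marks in 1 direction. Their H3K4me3 passed with the block only, apart from COL6A2, which also passed with local medians removed. COL6A1, and with the block COL9A2, were higher in H3K4me3 in LM2 than in Par, whereas their H3K27ac values were -0.20 and -0.53 and did not pass.

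Genes that process, bind or cleave collagen were counted by the same rule. For these genes only the fits without and with the replicate block were compared, and the other alternatives were not applied to their calls. Of 29 genes of collagen biosynthesis and assembly, 27 had H3K4me3, at 30 peaks. All 30 were tested, and 2 were higher in LM2 than in Par, 1 was higher and 1 lower in BrM2 than in Par, and 2 were lower in BrM2 than in LM2. Over all peaks near starts the shares called were 2.28%, 3.01% and 2.5%. With the block the counts were 5 higher and 2 lower, 4 higher and 4 lower, and 5 higher and 7 lower in these comparisons, beside 17.7%, 23.1% and 27.8%. P3H3, a member of the prolyl 3-hydroxylase family, held 69.8 and 94.8 normalized counts for Par, 238 and 195 for LM2 and 332 and 275 for BrM2, and rose in both (1.37 ± 0.37 and 1.86 ± 0.37, DESeq2 adjusted p = 0.0147 and 6.48e-05). TLL1, a protease that trims procollagen, held 140 and 103 for Par, 325 and 298 for LM2 and 98.9 and 70.3 for BrM2, and rose in LM2 (1.38 ± 0.38, adjusted p = 0.0152), with BrM2 below LM2 (6.32e-05). P4HA3, a prolyl 4-hydroxylase subunit, held 73.5 and 37.0 for Par, 39.6 and 35.5 for LM2 and 10.6 and 6.2 for BrM2, and was lower in BrM2 than in Par by -2.75 ± 0.66 (adjusted p = 0.00178).

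At H3K27ac the biosynthesis genes had 126 peaks. Of 98 tested in LM2 against Par 3 were higher and 1 lower, of 104 in BrM2 against Par 2 were higher and 2 lower, and of 101 in BrM2 against LM2 1 was higher. Over all peaks within 100 kb of a start the shares called were 3.25%, 4.36% and 2.38%. With the block 3 were higher and 1 lower of 96 tested, 4 higher and 4 lower of 96, and 2 higher of 87. The shares over all such peaks were then 5.06%, 7.86% and 5.62%. Lysyl oxidases, which crosslink collagen, made up all 4 calls in LM2 without the block. A LOXL3 peak 17638 bases from a start held 5.2 and 7.0 normalized counts for Par, 46.6 and 73.9 for LM2 and 51.7 and 38.6 for BrM2, and rose in both (3.30 ± 0.60 and 2.91 ± 0.61, adjusted p = 8.72e-06 and 0.000211). A LOX peak rose in LM2 (2.28 ± 0.61, adjusted p = 0.00972) and a LOXL4 start peak was lower (-1.15 ± 0.35, adjusted p = 0.0322). A distal LOXL4 peak was higher in BrM2 than in LM2 (1.29 ± 0.39, 0.0404). In BrM2 against Par both lower peaks lay near COLGALT2, of a collagen galactosyltransferase (-1.48 ± 0.49 and -1.12 ± 0.36, adjusted p = 0.046 and 0.0397). Of 10 collagen receptor genes, 5 had H3K4me3 peaks and none of the 7 peaks passed without the block in any comparison. With it 1 of 6 tested was higher in LM2 than in Par. In BrM2 1 of 7 was lower than in Par and 3 of 7 lower than in LM2. In these comparisons 17.7%, 23.1% and 27.8% of all peaks near starts were called. At H3K27ac the receptors had 59 peaks. Of 46 tested in LM2 against Par 1 was higher, and of 50 in BrM2 against Par 2 were lower. In BrM2 against LM2 1 of 46 was lower. Over all peaks within 100 kb of a start the shares called were 3.25%, 4.36% and 2.38%. The block gave 1 higher and 2 lower of 46 tested, 1 higher and 2 lower of 46, and 1 lower of 43. Beside these stood 5.06%, 7.86% and 5.62% of all such peaks. DDR1, a collagen-binding kinase, was lower in BrM2 than in Par at its start (-1.02 ± 0.30, adjusted p = 0.0186), as was a distal peak (-1.01 ± 0.33, adjusted p = 0.0492). A distal MRC2 peak, of a collagen uptake receptor, was higher in LM2 than in Par (1.53 ± 0.43, adjusted p = 0.0157) and lower in BrM2 than in LM2 (-1.85 ± 0.46, 0.00546). Among 5 collagenases, 1 of 7 tested H3K27ac peaks was higher in LM2 than in Par, beside 3.25% of all peaks within 100 kb of a start. This peak near MMP8 held 0 and 2.0 normalized counts for Par, which is near 0, and 32.5 and 25.6 for LM2 (DESeq2 adjusted p = 0.00246). No other peak of the collagenases passed without the block. With the block 1 H3K27ac peak was also higher in BrM2 than in Par, and the single H3K4me3 peak of the collagenases was lower in LM2 than in Par.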

How the data were processed

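Values are whole-number counts of reads in each peak of a consensus set, as deposited by the authors, who ran featureCounts 1.6.0 with reads extended by 150 bases at the 3′ end. Per the labels, reads were aligned to hg19 with Bowtie2 2.3.4.3, and peaks were called with MACS2 2.1.2. Broad peaks were called on the merged reads of a mark, so a region marked in 1 line only may be missed. Inputs (3 samples) were not used, and 1 promoter sequence is not reported here. The members, gene lists and named-peak rule were chosen with earlier results of these data known.

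DESeq2 1.42.0 (R 4.3.3) was fitted to the raw counts of the 6 libraries of a mark with line as the only term, and p-values were adjusted over all peaks. Peaks without an adjusted p were not counted as tested. Normalized counts are counts divided by the library's size factor. Alternatives were edgeR 4.0.16 (quasi-likelihood), TMM sizes, a replicate block, a filter on low counts, removal of the median of neighbouring peaks within 2.5 Mb (of the chromosome where under 10 peaks lay there), leaving out each library, and other distances.

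Named peaks were every H3K4me3 peak called with or without the block, up to 8 genes per comparison with the largest called H3K27ac change at a mean of at least 20, the 5 highest levels, and the head-to-head pairs. Further called peaks are named as well.

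Same-numbered libraries deviated together: differences between replicates 1 and 2 correlated between lines with r = 0.788 to 0.843 for H3K4me3 and 0.407 to 0.607 for H3K27ac, over peaks with a mean of at least 50. The pairing rests on these values and the replicate numbers in the titles. Replicates differed by more than counting noise (chi-square per degree of freedom 2.63 to 14.3). The study's methods call them biological replicates, and nothing more is said of how the cultures were separated, so p-values measure the spread between these libraries.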

Additional observations from a re-analysis of the deposited data

Results flagged for a closer look

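The effect of LM2 and that of BrM2, each against the same Par libraries, differed by the direct test of BrM2 against LM2 (DESeq2) at 8 collagen peaks, here as log2 fold changes. For H3K4me3 these were the starts of COL11A1 (3.27), COL8A1 (1.43) and COL7A1 (-2.04). For H3K27ac they were the COL8A1 peaks 91.8 kb (1.69), 72.5 kb (1.89) and 57.9 kb (1.5) upstream, the COL5A1 start (-1.09) and the peak downstream of COL4A1 (-1.33). Groups of 2 libraries were too small to look for outlying libraries.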

How the results depend on the processing

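Of 34 called differences at collagen peaks, 6 held in all 11 alternatives: COL6A1 and COL19A1 distal H3K27ac in both sub-populations, the COL6A2 peak 39.0 kb upstream in LM2 and the COL1A2 peak 17.1 kb upstream in BrM2. Of the others 27 were lost at least once, 16 of them only when a library was left out, 10 with local medians removed and 1 under edgeR, and no value turned its direction. The COL19A1 peak 28.5 kb from its start had no adjusted p in 4 of the 11. The replicate block lost none. With the block the H3K4me3 counts were 10 in LM2 against Par, 11 in BrM2 against Par and 11 in BrM2 against LM2, where 1, 1 and 3 stood without it, and the H3K27ac count in BrM2 against LM2 was 11 where 5 stood. With local medians removed, H3K4me3 gave 2 in LM2 against Par and H3K27ac 1 in BrM2 against LM2. For the latter, edgeR gave 9 and a distance of 50 kb gave 1. The share called over all peaks was computed only for the fits without and with the block. Counts under the other settings, including those with a library left out, have no such share beside them. Whether they moved more than the calls over all peaks cannot be told. Leaving out each library gave 0 to 1, 0 to 1 and 1 to 3 H3K4me3 calls and 3 to 8, 3 to 12 and 0 to 4 H3K27ac calls in the same order of comparisons, with the lone library assumed to vary like the others. The counts of genes with a peak, 25 and 35, stayed within 1.5 times under other distances. Depth limits low peaks, and BrM2 replicate 2 of H3K27ac was the shallowest library.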
